A study of Homo sapiens with 6 samples.

Results

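Genes of lipid droplet storage and lipolysis were followed in MDA-MB-231, a human cell line of triple-negative breast cancer. The cells were given 10 μM VNLG-152R, a compound developed as a degrader of the MNK1/2 kinases, or the DMSO vehicle, for 24 h. The set holds 10 genes chosen by name for droplet coat, triglyceride and sterol ester synthesis, fatty acid activation and lipase function, out of 61552 gene identifiers in the count tables. Each group had 3 libraries, and neither the labels nor the description of the RNA-seq experiment, which names triplicates, says whether these libraries came from independent experiments, so p-values measure the spread between these libraries, which may be technical. Counts were scaled to library size (CPM, the usual per-million unit), tested by edgeR under its quasi-likelihood model, and called at a Benjamini-Hochberg adjusted p under 0.05 over all 17084 genes that passed the expression filter. Of the 10 genes, 9 passed that filter, and DGAT1 had 0 counts in every library.

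A lipid droplet is a core of triglyceride and sterol ester in a phospholipid monolayer coated by proteins such as the perilipins. Acyl-CoA synthetases activate fatty acids, lipins and acyltransferases assemble triglyceride from them, and sterol acyltransferases esterify cholesterol. Lipolysis starts with the lipase encoded by PNPLA2 (adipose triglyceride lipase), which a coactivator (ABHD5) turns on and small inhibitor proteins (G0S2 and the product of HILPDA) turn off. LPIN1 and PNPLA3 are known targets of the sterol regulatory transcription factors SREBP, and HILPDA is known to be induced by low oxygen.

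PNPLA3 and LPIN1 rose with VNLG-152R, ACSL3 rose by less, and PLIN2 fell. In all, 3 of the 9 tested genes were called higher and 1 lower, against 3.76% higher and 1.43% lower (5.19% in either direction) of all tested genes. The genes were chosen with earlier results of these data known, so these shares are a description and no test of the set. The median log2 fold change of the 9 genes was 0.044, against -0.0024 for all tested genes. The calls of PNPLA3 and LPIN1 held when any library was left out, whereas those of ACSL3 and PLIN2 held only without VNLG-152R replicate 1. The groups did not overlap in 5 of the 9 genes, 4 higher and 1 lower, against 28.5% of all tested genes, 15.1% higher and 13.4% lower. In bulk RNA, fewer cells that express a gene and less RNA per cell cannot be told apart.

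**Figure D1:**
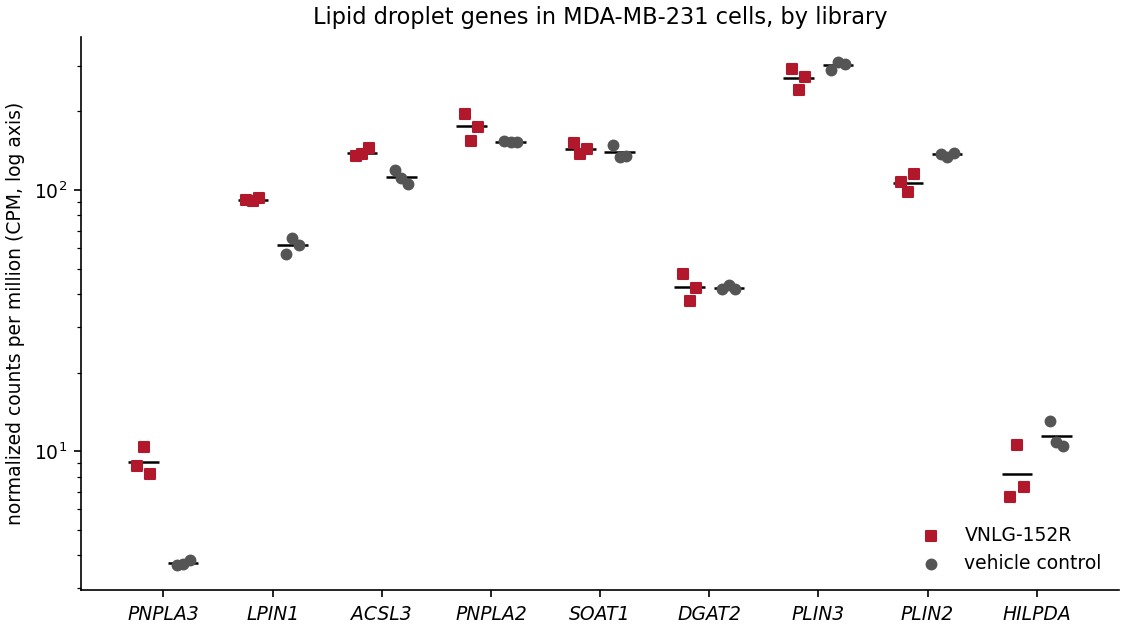
Normalized CPM on a log axis for the 9 tested lipid droplet genes, with red squares for the 3 VNLG-152R libraries, grey circles for the 3 vehicle control libraries and black lines for group means. PNPLA3, LPIN1, ACSL3 and PNPLA2 lie higher in every VNLG-152R library, PLIN2 lies lower in every one, and the groups overlap in the other genes.

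Of the lipase genes, PNPLA3 rose. PNPLA3, a droplet-bound lipase closely related to PNPLA2, lies on chromosome 22 from 43923739 to 43964488 (GRCh38, as are all positions given). It had 8.75, 10.4 and 8.17 CPM in VNLG-152R replicates 1 to 3, against 3.67, 3.69 and 3.82 CPM in vehicle control replicates 1 to 3. Every VNLG-152R library was above every control, by more than the spread of either group. The means were 9.10 ± 1.14 CPM with VNLG-152R and 3.72 ± 0.0819 CPM in controls (SD, n = 3 each). This is a 2.44-fold difference, a log2 fold change of 1.29 with a standard error of 0.12 (edgeR adjusted p = 6.6e-05). The raw counts were 592, 793 and 676 with VNLG-152R, against 223, 222 and 260 in controls, so the lowest library still had 222 reads. Of its exons, 4.58% are shared with SAMM50 on the same strand.

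PNPLA2, the lipase of the first step of triglyceride breakdown, lies on chromosome 11 from 818902 to 825573. It had 196, 154 and 175 CPM in VNLG-152R replicates 1 to 3, against 154, 153 and 153 CPM in controls. The controls were close to each other, and VNLG-152R replicate 2 lay just above them (154.24 against at most 153.9 CPM). The log2 fold change was 0.20 and did not pass (95% interval -0.0089 to 0.40, edgeR adjusted p = 0.243), and an antisense gene lies over 10.4% of its exons. Whether the responses of PNPLA3 and PNPLA2 differ was not tested.

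Of the synthesis genes, LPIN1 rose. It encodes a phosphatidate phosphatase, which makes the diacylglycerol that is then turned into triglyceride, and lies on chromosome 2 from 11677595 to 11827409. It had 91.5, 90.8 and 93.6 CPM in VNLG-152R replicates 1 to 3, against 57.2, 65.6 and 61.5 CPM in controls. The VNLG-152R libraries lay close together, at 92.0 ± 1.47 CPM, and all were above the controls, at 61.4 ± 4.23 CPM (SD, n = 3 each). The level was 1.5 times that of controls, or 0.58 higher on the log2 scale with a standard error of 0.083 (edgeR adjusted p = 0.00164). A correction for transcript length brought the log2 value to 0.46 (edgeR adjusted p = 0.00525).

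DGAT2, which adds the last acyl chain of triglyceride and lies on chromosome 11 from 75759512 to 75801535, had 47.8, 37.5 and 42.4 CPM with VNLG-152R, against 41.7, 43.1 and 41.8 CPM in controls. The VNLG-152R libraries lay on both sides of the controls. The log2 fold change was 0.012 (95% interval -0.20 to 0.22, edgeR adjusted p = 0.956), and it turned to -0.076 without VNLG-152R replicate 1. SOAT1, which esterifies cholesterol for storage and lies on chromosome 1 from 179293714 to 179358680, had 151, 137 and 143 CPM with VNLG-152R, against 149, 134 and 136 CPM in controls. These groups overlapped too, with a log2 fold change of 0.044 (95% interval -0.13 to 0.22, edgeR adjusted p = 0.79).

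ACSL3, an acyl-CoA synthetase that moves onto nascent droplets, lies on chromosome 2 from 222860934 to 222944639. It had 136, 137 and 144 CPM with VNLG-152R, against 119, 111 and 106 CPM in controls. The groups did not overlap, and the means were 139 ± 4.67 CPM with VNLG-152R and 112 ± 6.72 CPM in controls (SD, n = 3 each). The log2 fold change was 0.31 with a standard error of 0.081 (edgeR adjusted p = 0.0457). It passed by little, and the adjusted p of edgeR was 0.0724 without VNLG-152R replicate 2, 0.149 without VNLG-152R replicate 3, and 0.0599, 0.134 and 0.221 without vehicle control replicates 1, 2 and 3. It was 0.0809 after a correction for transcript length, with a log2 fold change of 0.27.

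Of the droplet coat genes, PLIN2 fell. This gene encodes the perilipin that coats droplets in most cells other than adipocytes and lies on chromosome 9 from 19108375 to 19149290. It had 108, 98.3 and 115 CPM with VNLG-152R, against 138, 134 and 139 CPM in controls. Every VNLG-152R library was below every control, with means of 107 ± 8.25 CPM with VNLG-152R and 137 ± 2.28 CPM in controls (SD, n = 3 each). The log2 fold change was -0.36 with a standard error of 0.083, a level 0.781 times that of controls (edgeR adjusted p = 0.0304). The adjusted p of edgeR was 0.079 without VNLG-152R replicate 2, 0.0512 without VNLG-152R replicate 3, and 0.0783, 0.0728 and 0.135 without vehicle control replicates 1, 2 and 3, while the log2 fold change stayed between -0.41 and -0.30. PLIN3, a coat protein that moves between cytosol and droplets and lies on chromosome 19 from 4838341 to 4867768, had 291, 241 and 272 CPM with VNLG-152R, against 289, 310 and 305 CPM in controls. VNLG-152R replicate 1 lay among the controls, and the log2 fold change of -0.17 did not pass (95% interval -0.36 to 0.024, edgeR adjusted p = 0.285). An antisense gene lies over 17.8% of the exons of PLIN3.

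HILPDA, which encodes an inhibitor of PNPLA2 and lies on chromosome 7 from 128455849 to 128458418, had 6.68, 10.5 and 7.26 CPM with VNLG-152R, against 13.1, 10.8 and 10.5 CPM in controls. VNLG-152R replicate 2 lay at the level of the lowest control, and the other 2 libraries were below all controls. The log2 fold change was -0.49 with a standard error of 0.16 and did not pass (95% interval -0.83 to -0.14, edgeR adjusted p = 0.0971). Without VNLG-152R replicate 2 it was -0.71 (edgeR adjusted p = 0.0102). Its exons overlap other genes on the same strand over 13.2% of their length. VNLG-152R replicate 2 was also the library with the most read pairs outside annotated genes, 5.05%, and the part of this in the value was not tested.

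**Figure D2:**
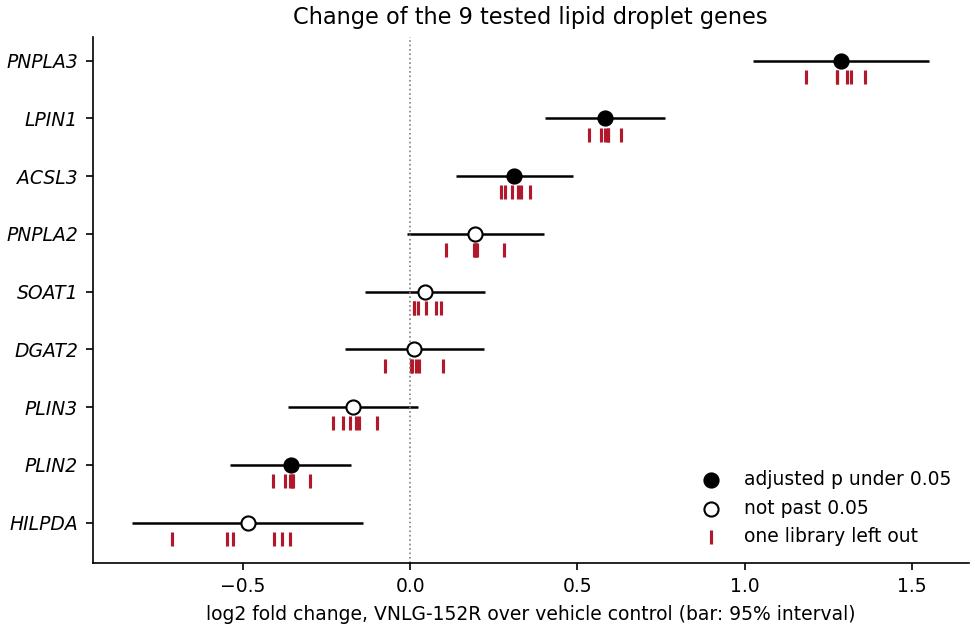
The 9 tested lipid droplet genes by their log2 fold change with VNLG-152R relative to vehicle control, with bars for 95% intervals, filled points for an adjusted p under 0.05 and red ticks for the values with each of the 6 libraries left out. PNPLA3 at 1.29 and LPIN1 at 0.58 lie clear of 0 with every library left out, the ticks of DGAT2 fall on both sides of 0, and those of HILPDA spread from -0.71 to -0.36.

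DGAT1, the other enzyme of the last step of triglyceride synthesis, is listed at 0 in all 6 libraries, and its level could not be compared. It lies on chromosome 8 from 144314584 to 144326910, within a run of 10 neighboring protein-coding genes that had at most 27 counts over the 6 libraries together, 7 of them at 0 in every library. The run takes in HSF1, a heat shock transcription factor, with 4 counts in all, and CPSF1, a subunit of the machinery that cleaves and polyadenylates mRNA in every cell, with 0. The genes directly beyond the run were low. SCX had 2.75 CPM in VNLG-152R libraries and 1.75 CPM in controls, and VPS28 had 2 CPM in VNLG-152R libraries and 2.15 CPM in controls. The genes next to these had ordinary counts. BOP1 had 129 CPM in VNLG-152R libraries and 184 CPM in controls, and TONSL 84.5 CPM in VNLG-152R libraries and 95.5 CPM in controls. The value of 0 is therefore given as listed, and says nothing of the expression of DGAT1 in these cells.

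**Figure D3:**
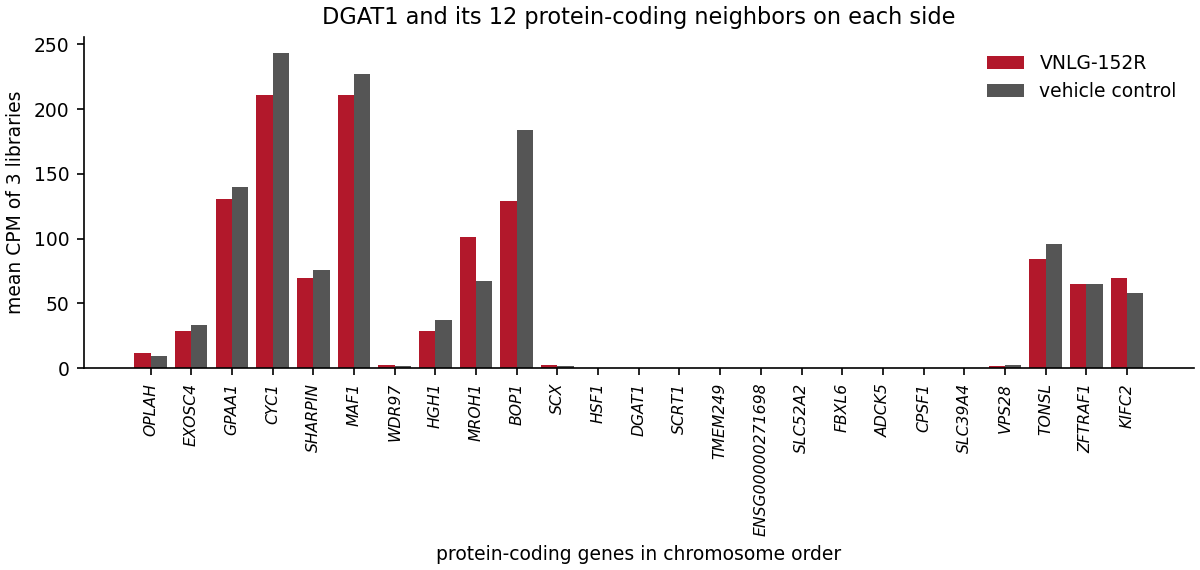
Mean CPM of 3 libraries for DGAT1 and the 12 protein-coding genes on each side of it in chromosome order, red for VNLG-152R and grey for vehicle control. Bars are at or near 0 in both groups from HSF1 to SLC39A4, those of SCX and VPS28 directly beyond are low, and taller bars are present again from TONSL onward.

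The levels of the 9 genes were set in order as CPM per kilobase of annotated exon, which makes genes of unlike length comparable. PLIN3 was highest in both groups, at 95.2 ± 8.91 CPM per kilobase with VNLG-152R and 107 ± 3.86 in controls (SD, n = 3 each). PNPLA2 came next, at 45.6 ± 5.49 with VNLG-152R and 39.8 ± 0.185 CPM per kilobase in controls. PLIN2, SOAT1 and ACSL3 followed in that order, at 21.0, 20.5 and 19.2 CPM per kilobase with VNLG-152R, where the ranges of neighbors overlapped, and at 26.9, 19.9 and 15.5 CPM per kilobase in controls, where they did not. LPIN1 ranked sixth with VNLG-152R, at 7.76 CPM per kilobase and apart from both neighbors. In controls it ranked eighth, at 5.18 CPM per kilobase, and its range overlapped that of DGAT2 at 5.34, which in turn overlapped that of HILPDA at 5.53. PNPLA3 was lowest in both groups, at 2.81 ± 0.353 CPM per kilobase with VNLG-152R and 1.15 ± 0.0253 in controls, so the gene with the largest fold change was the least abundant of the set.

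Promoters were inspected for 6 of the genes, PLIN2, PLIN3, PNPLA2, SOAT1, LPIN1 and ACSL3, as the 250 bases before each RefSeq start (8 windows, 3 of them for LPIN1, assembly GRCh38.p14). PNPLA3, DGAT1, DGAT2 and HILPDA were not in the table. Motifs were the sterol response element TCACNCCAC, the NF-Y box CCAAT, the E-box CACGTG, the hypoxia core ACGTG (which the E-box contains) or GCGTG, and direct repeats of the nuclear receptor half-site AGGTCA spaced by 1 or 4 bases, on both strands. The windows shown are those of PLIN2, which fell, ACSL3, which rose, LPIN1 at its most upstream start, and PNPLA2, the only gene of the 6 with a sterol response element. Each is written 5′ to 3′ on the strand of the gene, with capitals for a sterol response element, an NF-Y box or an E-box.
PLIN2 (chr9:19127493-19127742, minus strand): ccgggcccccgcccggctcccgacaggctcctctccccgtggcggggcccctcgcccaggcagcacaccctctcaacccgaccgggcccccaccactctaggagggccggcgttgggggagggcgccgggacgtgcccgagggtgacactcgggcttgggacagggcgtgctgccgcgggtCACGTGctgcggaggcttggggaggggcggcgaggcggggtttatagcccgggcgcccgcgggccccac
ACSL3 (chr2:222860786-222861035, plus strand): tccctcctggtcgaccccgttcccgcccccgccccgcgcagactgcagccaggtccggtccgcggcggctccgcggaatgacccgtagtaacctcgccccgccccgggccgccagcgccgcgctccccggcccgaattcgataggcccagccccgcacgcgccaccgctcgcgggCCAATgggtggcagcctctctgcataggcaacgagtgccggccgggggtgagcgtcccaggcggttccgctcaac
LPIN1 (chr2:11677294-11677543, plus strand): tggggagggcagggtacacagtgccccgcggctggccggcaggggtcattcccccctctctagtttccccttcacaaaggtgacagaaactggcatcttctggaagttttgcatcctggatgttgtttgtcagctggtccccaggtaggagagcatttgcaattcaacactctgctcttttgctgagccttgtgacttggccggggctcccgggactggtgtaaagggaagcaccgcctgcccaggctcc
PNPLA2 (chr11:818664-818913, plus strand): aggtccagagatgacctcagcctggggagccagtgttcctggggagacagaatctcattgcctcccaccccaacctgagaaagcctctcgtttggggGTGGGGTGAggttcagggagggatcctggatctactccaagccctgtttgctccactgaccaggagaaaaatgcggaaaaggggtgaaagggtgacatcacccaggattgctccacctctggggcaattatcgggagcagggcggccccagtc

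The sterol response element was found in 0.883% of all 35116 promoter windows, and the match in PNPLA2, on the opposite strand, begins 153 bases before its start. An NF-Y box was present in ACSL3, SOAT1 and PLIN3, against 32.0% of all windows. The E-box of PLIN2 begins 69 bases before its start, and 6.34% of all windows hold one. The core GCGTG was present in ACSL3, PLIN2, PLIN3, SOAT1 and a window of LPIN1, against 32.2% of all windows, ACGTG in PLIN2, against 18.5%, and neither nuclear receptor repeat in any of the 8 windows. Among the 16511 windows of tested genes, 42.3% held GCGTG, 22.2% ACGTG, 8.05% the E-box, 32.7% the NF-Y box and 0.878% the sterol response element. These shares are per window, and LPIN1 had 3 windows. A match is a description of these letters and not a bound site, and the LPIN1 window shown holds no marked motif.

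Genes around the droplet set were read from 8 lists of related genes that hold none of the 10, 107 genes in all, of which 83 were tested. Of these 83, 9 were called higher and 6 lower, against 3.76% higher and 1.43% lower (5.19% in either direction) of all tested genes, the same shares against which each list is to be read. These lists too were chosen with earlier results known, so their counts describe the lists and test nothing. Their median log2 fold change was 0.062, against -0.0024 for all tested genes. The median changed sign between lists, from 0.24 for sterol ester turnover to -0.16 for hypoxia-inducible genes.

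**Figure D4:**
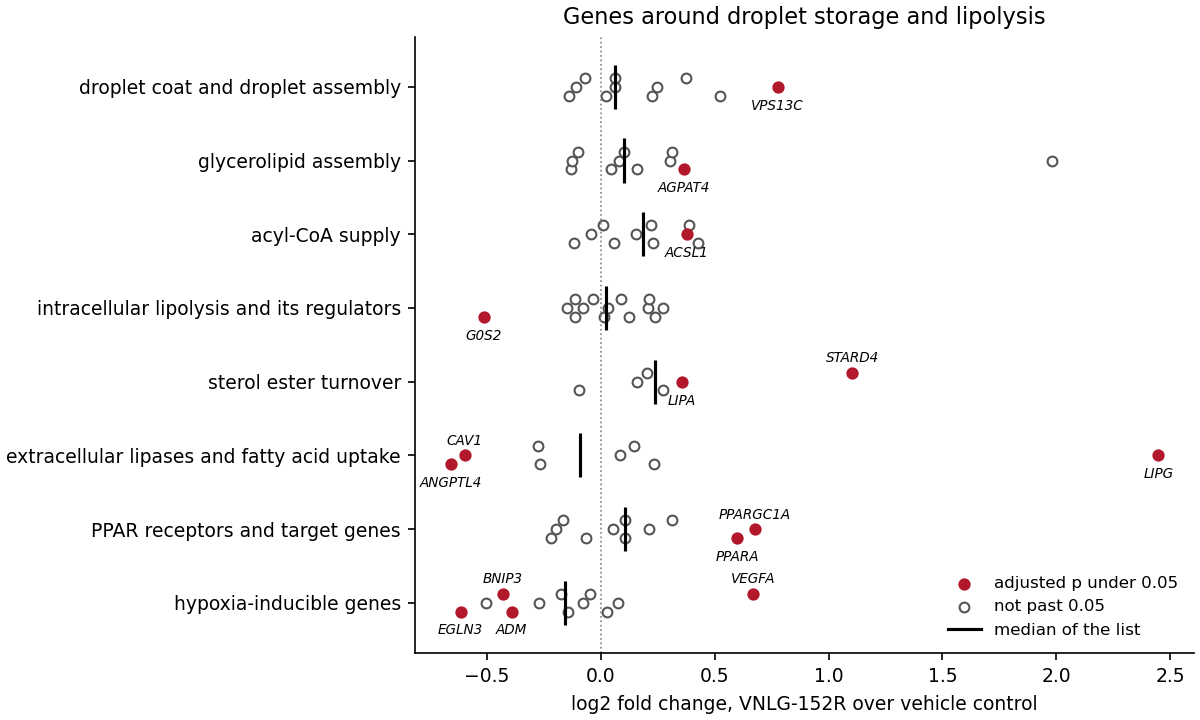
Each tested gene of 8 related lists by its log2 fold change with VNLG-152R relative to vehicle control, with red points for an adjusted p under 0.05, open points for genes not past it and a black line for the median. LIPG at 2.45 and STARD4 at 1.10 are the called genes farthest to the right, and ANGPTL4 at -0.66 the farthest to the left. The open point at 1.98 is AGPAT1.

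Among 14 tested genes of intracellular lipolysis and its regulators, 0 rose and 1 fell, with a median log2 fold change of 0.024. The gene that fell was G0S2, the inhibitor of PNPLA2, with 105, 89.1 and 88.7 CPM with VNLG-152R, against 143, 129 and 131 CPM in controls. All VNLG-152R libraries were below all controls, with a log2 fold change of -0.51 and a standard error of 0.092 (edgeR adjusted p = 0.00771) and an adjusted p under 0.05 with any library omitted. The coactivator ABHD5 had a log2 fold change of -0.15 (95% interval -0.34 to 0.040) and the monoacylglycerol lipase gene MGLL one of -0.076 (-0.32 to 0.17), and neither passed. The hormone-sensitive lipase gene LIPE was low, with 129, 100 and 150 counts with VNLG-152R, against 70, 88 and 117 counts in controls.

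Among 11 tested genes of glycerolipid assembly, 1 rose and 0 fell, with a median of 0.10. This was AGPAT4, a lysophosphatidic acid acyltransferase, with a log2 fold change of 0.37 (edgeR adjusted p = 0.0472). It did not pass without VNLG-152R replicates 1 or 2 (edgeR adjusted p = 0.0825 and 0.0882) or without vehicle control replicates 1, 2 or 3 (0.113, 0.118 and 0.161), nor with limma-voom (0.0596), a transcript length correction (0.109) or thinning (0.0513). LPIN2 and LPIN3, the other lipins, each had a log2 fold change of 0.31 and did not pass (95% intervals 0.11 to 0.50 and 0.055 to 0.57, adjusted p = 0.0751 and 0.144). AGPAT5 is listed at 0 in every library, a value given as listed and, as for DGAT1, not taken as absence of expression. AGPAT1 had 0.577, 3.10 and 4.60 CPM with VNLG-152R, against 0.329, 0.531 and 1.22 CPM in controls, a spread within each group that left its log2 fold change of 1.98 short of the threshold (edgeR adjusted p = 0.0712). Its counts were 39, 237 and 381 with VNLG-152R, against 20, 32 and 83 in controls. Antisense genes lie over 29.9% of its exons.

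Among 10 tested genes of acyl-CoA supply, 1 rose and 0 fell, with a median of 0.19. ACSL1, a paralog of ACSL3, had 38.3, 37.6 and 38.6 CPM with VNLG-152R, against 28.2 to 30.9 CPM in controls. Its log2 fold change was 0.38 (edgeR adjusted p = 0.0196), with adjusted p of 0.0695 without VNLG-152R replicate 3 and of 0.07 and 0.113 without vehicle control replicates 1 and 3. The other paralogs ACSL4 and ACSL5 had log2 fold changes of 0.23 and 0.058 and did not pass.

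Among 11 tested genes of the droplet coat and droplet assembly, 1 rose and 0 fell, with a median of 0.062. VPS13C, a lipid transfer protein at contacts between the endoplasmic reticulum and droplets or late endosomes, had 57.5 ± 5.44 CPM with VNLG-152R and 33.6 ± 3.51 CPM in controls (SD, n = 3 each). On the log2 scale it was higher by 0.78 with a standard error of 0.10 (edgeR adjusted p = 0.000957), and it passed with any library omitted. The perilipins of fat and muscle cells were low, with 44, 46 and 61 counts of PLIN1 with VNLG-152R, against 25, 40 and 41 counts in controls, and at most 12 counts of PLIN4 or PLIN5 in any library.

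Among 6 tested genes of sterol ester turnover, 2 rose and 0 fell, with a median of 0.24. STARD4, a cytosolic sterol carrier, had 32.4, 45.7 and 48.1 CPM with VNLG-152R, against 20.5, 19.9 and 18.3 CPM in controls. The log2 fold change was 1.10 with a standard error of 0.13 (edgeR adjusted p = 0.000405). LIPA, the lysosomal acid lipase that frees cholesterol from sterol esters, had a log2 fold change of 0.36 (edgeR adjusted p = 0.0295). LIPA did not pass without VNLG-152R replicates 2 or 3 (edgeR adjusted p = 0.079 and 0.0816) or without vehicle control replicates 1, 2 or 3 (0.0619, 0.087 and 0.155). NCEH1, which hydrolyzes sterol esters outside the lysosome, had a log2 fold change of -0.094 and did not pass (95% interval -0.27 to 0.087). SOAT2, the second sterol acyltransferase, had at most 10 counts in any library.

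Among 8 tested genes of extracellular lipases and fatty acid uptake, 1 rose and 2 fell, with a median of -0.090. The gene that rose was LIPG, an endothelial lipase that acts on lipoprotein phospholipids, with 857, 1098 and 1155 counts with VNLG-152R, against 137, 147 and 191 counts in controls, and a log2 fold change of 2.45. ANGPTL4, a secreted inhibitor of lipoprotein lipase, had 35.5, 23.4 and 28.4 CPM with VNLG-152R, against 50.2, 39.2 and 48.3 CPM in controls. Its log2 fold change was -0.66 (edgeR adjusted p = 0.0204), with adjusted p of 0.081 without VNLG-152R replicate 3 and of 0.0711 and 0.0858 without vehicle control replicates 1 and 3. CAV1, the main coat protein of caveolae, had 238 ± 19.8 CPM with VNLG-152R and 359 ± 36.1 CPM in controls (SD, n = 3 each), or -0.60 on the log2 scale (edgeR adjusted p = 0.0048) that passed with any library omitted.

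Among 11 tested PPAR receptor and target genes, 2 rose and 0 fell, with a median of 0.11. PPARA, the receptor that drives fatty acid oxidation genes, had 39.2, 36.1 and 38.6 CPM with VNLG-152R, against 22.2, 28.6 and 24.4 CPM in controls, a log2 fold change of 0.60 (edgeR adjusted p = 0.00525). PPARGC1A, a coactivator of these receptors, had a log2 fold change of 0.68 (edgeR adjusted p = 0.0197, with 0.0828 without VNLG-152R replicate 3 and 0.0578 without vehicle control replicate 1). PPARD and PPARG, the other receptors of this family, each had a log2 fold change of 0.11 and did not pass. The tested target genes CPT1A, ACADVL, UCP2 and PDK4 lay below 0, at -0.19, -0.17, -0.22 and -0.065. The target UCP3 lay above 0, at 0.31, with 0.862 CPM with VNLG-152R and 0.696 CPM in controls. None of these target genes passed, so the rise of PPARA and PPARGC1A was not matched by called targets in this list.

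Among 12 tested hypoxia-inducible genes, the class to which HILPDA belongs, 1 rose and 3 fell, with a median of -0.16. Those that fell were the oxygen-sensing hydroxylase EGLN3, the mitochondrial autophagy receptor BNIP3 and the peptide hormone ADM, with log2 fold changes of -0.61, -0.43 and -0.39 (edgeR adjusted p = 0.000859, 0.00917 and 0.0294). BNIP3 did not pass without vehicle control replicate 3 (0.0551), and ADM not without VNLG-152R replicates 2 or 3 (0.0818 and 0.107) or vehicle control replicates 2 or 3 (0.0807 and 0.14), nor after a transcript length correction (0.0615). The angiogenic factor VEGFA rose, with 726 ± 72.0 CPM with VNLG-152R and 456 ± 17.8 CPM in controls (SD, n = 3 each), or 0.67 higher on the log2 scale (edgeR adjusted p = 0.00157).

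Beside LPIN1 and PNPLA3, the known SREBP targets INSIG1, a sterol-sensing regulator, and SCD, a desaturase, were called higher, with log2 fold changes of 2.41 and 1.71. Both were taken with their values known.

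Depth was 69923839 to 82151816 counts in VNLG-152R libraries and 60122936 to 68583224 in controls, every VNLG-152R library being the deeper, and thinning every library to the total of the shallowest changed no call among the 9 genes. The cells carried abundant RNA of CD44 (at least 574 CPM) and little of ESR1 (at most 8 counts in a library), while SPARC and CDH2, listed as markers of the line, were under 1 CPM in all libraries. VIM, the vimentin gene, was the marker of the line that changed among 8 tested, with 3867 ± 463 CPM with VNLG-152R and 5079 ± 145 CPM in controls (SD, n = 3 each, edgeR adjusted p = 0.0472). It did not pass under a filter of at least 1 CPM on average (0.0528). It passed only without VNLG-152R replicate 1 (0.0102) when libraries were left out, with 0.089 and 0.143 without VNLG-152R replicates 2 and 3 and 0.0921, 0.122 and 0.174 without vehicle control replicates 1, 2 and 3, and 24.4% of its exons are covered by an antisense gene. The part of these shifts in the droplet gene values was not tested. Of 10 adipocyte markers, 5 were tested and 0 called, with LEP, FABP4 and AQP7 at 0, ADIPOQ at no more than 1 count and CIDEC at no more than 5 counts in any library. The 5 tested were PPARG, at 35.0 CPM with VNLG-152R and 32.5 CPM in controls, LPL, at 4.96 CPM with VNLG-152R and 4.67 CPM in controls, and LIPE, CFD and PLIN1, each under 2 CPM in every library. Of 8 blood and endothelial markers, 2 were tested and 0 called. These were PECAM1, at 25.1 CPM with VNLG-152R and 23.1 CPM in controls, and HBB, at 1.15 CPM with VNLG-152R and 0.534 CPM in controls, while the leukocyte marker PTPRC had at most 2 counts in any library.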

How the data were processed

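The authors sequenced polyA-enriched, strand-specific libraries of MDA-MB-231 cells in paired-end mode and deposited raw counts per Ensembl gene, a table for each library. The processing notes of the submitters name HISAT, HTSeq, DESeq and GRCh38. The annotation release and the strand option used were not given in the sources used here, so reads of overlapping or antisense genes may not be separated. The special classes of HTSeq, 16.1% to 18.1% of read pairs with VNLG-152R and 15.5% to 16.2% in vehicle controls, were left out of totals and tests. Gene names, for some genes only an Ensembl identifier, matched 61399 of 61552 entries. Positions, exon lengths and exon overlaps are from GENCODE release 29 on GRCh38.

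The comparison used edgeR 4.0.16 under R 4.3.3 (filterByExpr, TMM factors, quasi-likelihood F-test), with 4 residual degrees of freedom and p-values adjusted by the Benjamini-Hochberg method over 17084 genes. The standard error is the size of the log2 fold change over the square root of F. The members and lists were chosen with earlier results of these data known, and lists were described by counts and medians with no set test. Genes named are the 10 members, each called gene of a list (up to 4 in each direction), and further list genes named for their role or their counts, chosen after their values were seen. Alternatives were no scaling beyond library size, RLE factors, other expression filters, DESeq2 1.42.0, limma-voom (limma 3.58.1), the replicate number as a block, a lowess correction (span 0.3) for exon length, thinning with a random seed of 1, and leaving out each library.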

Additional observations from a re-analysis of the deposited data

Results flagged for a closer look

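The share of read pairs that fell in no annotated gene, a class outside the comparison, was higher in every VNLG-152R library than in every vehicle control. It was 3.52%, 5.05% and 3.36% in VNLG-152R replicates 1 to 3, against 3.17%, 2.63% and 3.05% in vehicle control replicates 1 to 3. Groups of 3 libraries are too small for the test of a library far from its group.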

How the results depend on the processing

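Across 10 alternatives of normalization, filter, test, block, length and depth, and with each library left out, PNPLA3 (log2 fold change 1.18 to 1.36) and LPIN1 (0.46 to 0.63) kept their direction and call. The number of genes called over all tested genes was 887 and became 1539 with no expression filter, 1501 with DESeq2, 397 with the replicate number as a block, 261 with the block and the length correction, and 264 to 948 with a library left out, the lowest without vehicle control replicate 3, with 426 without vehicle control replicate 1 and 531 and 470 without VNLG-152R replicates 2 and 3. Members called higher numbered 2 to 3 and members called lower 0 to 1 with a library left out. Members called lower numbered 2 with no filter or DESeq2 and 0 with the block, with or without the length correction. PLIN2 (-0.41 to -0.30 with a library left out) had -0.36 with the block (edgeR adjusted p = 0.111) and -0.35 with the block and length correction (0.128). ACSL3 (0.27 to 0.36 with a library left out) had 0.31 with the block (0.184), 0.27 with the length correction (0.0809) and 0.27 with both (0.265). HILPDA (-0.71 to -0.36 with a library left out) passed at -0.49 with no filter (0.00271) and with DESeq2 (0.028). DGAT2 turned to -0.044 with the length correction and -0.050 with the block and length correction, and ran from -0.076 (without VNLG-152R replicate 1) to 0.097 with a library left out. LPIN1 had its highest adjusted p, 0.0498, with the block and length correction together. Of the related genes called, ACSL1 (adjusted p = 0.0961), LIPA (0.126), AGPAT4 (0.133), ADM (0.104) and BNIP3 (0.0659) did not pass with the block. With the block and length correction these had 0.137, 0.137, 0.277, 0.206 and 0.0665, and G0S2 (0.0619), PPARA (0.0752) and PPARGC1A (0.0916) did not pass either. VIM had 0.153 with the block and 0.149 with both. Related genes called numbered 5 higher and 3 lower with the block and length correction, and 5 to 9 higher and 3 to 6 lower with a library left out. With the block, with or without the length correction, glycerolipid assembly still had 1 gene called higher. As AGPAT4 did not pass there, this was a gene not called in the main comparison. The same list had 2 genes called higher with no filter or with DESeq2. Where a call changed, the cause was not tested. The replicate numbers share no stated origin, and the deviations of same-numbered libraries from their group means correlated at -0.192, -0.173 and -0.114, so the numbers were not taken as pairs. Log2 fold changes rose with exon length (Spearman's rho 0.211, a description over 16731 genes that are no replicates). VPS13C, VEGFA and PPARA have long exon totals of 19703, 14431 and 13219 bases. Their lowest log2 fold changes across the 10 alternatives were 0.57, 0.50 and 0.45, against 0.78, 0.67 and 0.60 in the main comparison.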
